A study of Mus musculus with 26 samples.

Results

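The comparison described here was that of mouse embryonic stem cells lacking the Tdpoz super-enhancer (Tdpoz-SE) with unedited cells when both were treated with pladienolide B (PlaB). Its members were the 2 SE KO PlaB libraries and the 2 PlaB libraries, 4 of the 26 poly(A) RNA-seq libraries of the series, chosen by their titles. All cells were of the R1 mESC line, grown with LIF on gelatin, and all 4 libraries came from cells given 4 nM PlaB for 4 days, with a WT genotype label in the PlaB group and an SE KO label in the SE KO PlaB group. The Tdpoz-SE had been removed with CRISPR-Cas9, and the number of clones behind the SE KO libraries was not given in the sources used here. The 2 DMSO libraries, from R1 cells given solvent alone, served as the untreated baseline, and the 2 Dux KD PlaB libraries, from R1 cells with Dux knocked down by short hairpin RNA and then given the same PlaB treatment, as a second loss of the PlaB response. For the effect of the same deletion in other settings, SE KO Dux OE was set against Dux OE (doxycycline at 4 µg/mL for 24 h) and SE KO RA against RA (0.53 µM retinoic acid for 48 h), each with 2 libraries. An SE KO library without induction was not analysed here, so a change caused by the deletion alone and a lost response to PlaB cannot be told apart.

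Pladienolide B binds the SF3B1 subunit of the U2 small nuclear ribonucleoprotein and inhibits the splicing of precursor mRNA. Mouse embryonic stem cells kept in a low dose of it turn on genes of the 2C embryo, among them the Zscan4, Tdpoz, Usp17l, Obox and Eif1a-like families, while genes of the pluripotent state decline. Dux, a double homeobox transcription factor made at the start of zygotic genome activation, drives many of these genes, and super-enhancers, long stretches of clustered active enhancers, lie near several of the families. The Tdpoz-SE lies in the cluster of Tdpoz genes on chromosome 3, which encode proteins with TRAF and BTB/POZ domains.

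Promoter windows of 2C genes whose responses to the deletion differed are shown first. They are taken from RefSeq (GRCm38.p6, the mm10 build), run from 250 bases before to 50 bases after the start site on the gene's own strand, and have in capitals each match to the letters GATTNAATC, the core of the sequence that Dux recognises. This motif reads the same on both strands. Zscan4c is shown as the gene with a very large fall in SE KO PlaB, Usp17la and Usp17lb as neighbouring copies of 1 family of which the first kept its level and the second fell, Tdpoz4 as the member of the cluster around the deleted element that has an entry, and Duxf3 and Gm4340 as genes with a motif.
Zscan4c, chr7:11005495-11005794, plus strand: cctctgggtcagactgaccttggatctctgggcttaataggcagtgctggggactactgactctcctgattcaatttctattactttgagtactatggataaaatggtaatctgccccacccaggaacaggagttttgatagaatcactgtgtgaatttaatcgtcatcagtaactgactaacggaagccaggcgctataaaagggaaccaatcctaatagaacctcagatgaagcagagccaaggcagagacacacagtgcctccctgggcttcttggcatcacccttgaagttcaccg
Usp17la, chr7:104856766-104857065, plus strand: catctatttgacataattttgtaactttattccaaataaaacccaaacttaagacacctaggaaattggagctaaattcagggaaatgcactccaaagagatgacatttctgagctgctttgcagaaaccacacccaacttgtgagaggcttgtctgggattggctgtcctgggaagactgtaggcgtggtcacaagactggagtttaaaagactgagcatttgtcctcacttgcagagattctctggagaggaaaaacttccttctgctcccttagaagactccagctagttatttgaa
Usp17lb, chr7:104842534-104842833, minus strand: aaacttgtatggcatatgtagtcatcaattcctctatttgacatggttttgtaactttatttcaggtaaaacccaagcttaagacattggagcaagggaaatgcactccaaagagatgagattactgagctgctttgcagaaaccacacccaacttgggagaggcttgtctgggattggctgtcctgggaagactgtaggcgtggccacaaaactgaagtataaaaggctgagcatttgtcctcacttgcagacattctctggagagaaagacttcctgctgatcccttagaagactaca
Tdpoz4, chr3:93796148-93796447, plus strand: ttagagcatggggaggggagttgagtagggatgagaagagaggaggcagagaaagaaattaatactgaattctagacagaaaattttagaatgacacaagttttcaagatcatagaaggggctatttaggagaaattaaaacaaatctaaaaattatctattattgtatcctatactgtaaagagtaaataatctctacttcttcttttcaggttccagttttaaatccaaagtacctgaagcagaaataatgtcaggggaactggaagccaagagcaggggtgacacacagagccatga
Duxf3, chr10:58233040-58233339, minus strand: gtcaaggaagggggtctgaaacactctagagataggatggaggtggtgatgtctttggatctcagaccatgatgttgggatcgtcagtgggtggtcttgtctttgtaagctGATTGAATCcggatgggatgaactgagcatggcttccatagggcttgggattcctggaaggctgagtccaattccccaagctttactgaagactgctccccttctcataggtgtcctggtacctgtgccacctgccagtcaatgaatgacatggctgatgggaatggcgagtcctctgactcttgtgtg
Gm4340, chr10:104193792-104194091, plus strand: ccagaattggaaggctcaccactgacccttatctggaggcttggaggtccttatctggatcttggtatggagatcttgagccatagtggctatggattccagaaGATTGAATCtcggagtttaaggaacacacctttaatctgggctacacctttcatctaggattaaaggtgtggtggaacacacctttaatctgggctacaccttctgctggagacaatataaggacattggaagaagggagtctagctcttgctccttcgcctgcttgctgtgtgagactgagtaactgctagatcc
The motif was present in 88 of 32851 promoter windows of 300 bases (0.268%), and in the windows of 7 of the 50 2C genes that had one (14%). Those 7 were Duxf3, Gm4340, Gm21293, AF067061, Gm13040, Gm13043 and Gm13057. The Zscan4c and Usp17l windows shown held none, which says only that these letters were not in them. The Zscan4c and Zscan4d windows were 90.7% identical, the Usp17la and Usp17lb windows 76.0%, and Zscan4c and Usp17la 49.8%. Promoter entries for Tdpoz3, Usp17le, Gm8300, Gm5662, Obox6, Spopfm1, Gm2016 and Tcstv3 were not used here.

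The depth was similar in the 4 libraries, with 18617150 and 19471344 counts in PlaB and 21745554 and 21446675 in SE KO PlaB, within a range of 14401452 to 39402840 over all 26. Levels are given in CPM, the usual depth-scaled count of a gene, on TMM-scaled library sizes, and changes as log2 fold changes with the standard error of the edgeR fit after the ± sign. Genes were called higher or lower at an adjusted p (Benjamini-Hochberg, edgeR quasi-likelihood test, 20953 genes tested) under 0.05 and a log2 fold change of 1 or more in either direction. All groups had 2 libraries, and nothing in the labels says that these were separate cultures, so the p-values measure the spread between these libraries, which may be technical. By the count of genes over 2-fold apart, the SE KO PlaB replicates stood further apart than those of the other groups compared here. In the series only Dux KD Zscan4 OE had more (57 of 7341). Of 7289 genes at 20 CPM or more, 30 differed by over 2-fold between them, against 1 of 6542 in PlaB and 1 of 7425 in DMSO, and the median log2 ratio of replicate 1 to replicate 2 ran from -0.35 for genes with under 1 kb of exon to 0.08 for those over 8 kb. The part of this difference in the results was not tested, and values that changed without 1 of these libraries are given as such. All 12 embryonic stem cell markers were detected in both groups, and of 16 fibroblast markers 4 had no counts in PlaB, 4 had none in SE KO PlaB and 2 (Lum and Postn) had none in both, with sums of 30.8 and 35.2 CPM in PlaB, 72.3 and 81.2 in SE KO PlaB and 86.3 and 89.0 in DMSO.

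The SE KO PlaB transcriptome differed widely from that of PlaB. Differences between clones or cultures cannot be told apart from those of the deletion. Relative to PlaB, 5429 genes were higher in SE KO PlaB (25.9%) and 5475 were lower (26.1%), with a median log2 fold change of -0.07 over all genes. PlaB itself had raised 6759 genes against DMSO (32.3%) and lowered 5572 (26.6%), whereas SE KO PlaB was higher than DMSO at 3583 genes (17.1%) and lower at 2298 (11%). On all tested genes, the distance between group means in log2 CPM was 240.2 from DMSO to PlaB, 136.1 from DMSO to SE KO PlaB and 201.4 from PlaB to SE KO PlaB. These comparisons share libraries, so their counts are not independent of each other.

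Much of the response to PlaB was lost in SE KO cells, and a smaller part was kept. Of the 6759 genes raised by PlaB, 2461 (36.41%) were also higher than DMSO in SE KO PlaB, and 4306 (63.71%) were lower than in PlaB. The 6759 genes were sorted by these calls alone. Of them 3442 were lost, that is, called lower than in PlaB and no longer called higher than DMSO. A further 864 were kept in part, called lower than in PlaB and still higher than DMSO. Another 1597 were kept and not lower than in PlaB, and 856 met neither test. A lost gene can still differ from DMSO by less than the fold threshold, as Them4 did (log2 fold change 0.83 ± 0.19). Over the 6759 genes the median log2 fold change against DMSO was 2.65 in PlaB and 1.05 in SE KO PlaB. Of the 5572 genes lowered by PlaB, 3539 were back in SE KO PlaB, that is, called higher than in PlaB and no longer called lower than DMSO. A further 569 were back in part, 846 stayed low and 618 met neither test. Over the 5572 genes the medians against DMSO were -2.17 in PlaB and -0.42 in SE KO PlaB. A gene that was back can also still differ from DMSO, as Nanog did (log2 fold change -0.51 ± 0.07). Since the genes were chosen on the PlaB libraries, some movement back toward DMSO in libraries compared with them is built into these counts. Conversely, of the 3583 genes higher than DMSO in SE KO PlaB, 933 were not called in PlaB against DMSO and 189 were lower there.

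The 2C genes were kept in part, and the share kept differed widely from gene to gene. Over 9 lists of 2C genes, 79 of 119 listed genes had enough counts to be tested. PlaB raised 69 of them against DMSO, with a median log2 fold change of 7.99 over the 79, and 70 were still higher than DMSO in SE KO PlaB, with a median of 5.83. With levels under 3 counts raised to that floor, these medians were 5.86 and 4.28. Against PlaB, 50 were lower in SE KO PlaB and 3 were higher, namely Gpr63, Pramef12 and Pramel1, which PlaB had not raised. The median was -1.71, against -0.07 for all genes and -1.56 for all 6759 genes raised by PlaB. The 2C fall was thus near that of PlaB-raised genes in general. Of the 69 raised by PlaB, 66 were also called higher than DMSO in SE KO PlaB, 50 were lower than in PlaB and 0 were higher by edgeR or DESeq2, with 1 (Usp17la) higher at an unadjusted p under 0.05. Of all genes raised by PlaB, 36.41% were also called higher than DMSO in SE KO PlaB and 63.71% were lower than in PlaB. In bulk libraries, fewer cells in the 2C-like state and less 2C RNA per cell cannot be told apart.

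Expressed as a percentage of the PlaB level, the SE KO PlaB level of these 69 genes ran from 4.70% to 215%, with a median of 29.2%. It was under 10% for 18 genes, from 10 to 50% for 33 and at least 50% for 18. The Eif1a-like genes (median 8.35%, 9 genes), the Zscan4 family (7.22%, 9 genes) and the Obox genes (9.94%, 3 genes) retained least. The Prame-like genes (34.4%, 14 genes), the Tdpoz genes (42.4%, 6 genes), the Usp17l genes (48.0%, 5 genes) and the Tcstv genes (52.0%, 5 genes) retained more. The Tcstv genes (29.2 to 66.1%) and Usp17l genes (29.5 to 141%) did not overlap in range with the Zscan4 (5.31 to 21.3%) or Eif1a-like genes (5.22 to 9.79%), whereas the Prame-like genes (7.38 to 131%) overlapped with both, as the plot of percentages by family shows. Copies within a family are nearly identical, so reads may be divided between them and single-copy values are uncertain. These percentages are descriptions, and the difference between families was not tested.

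**Figure D1:**
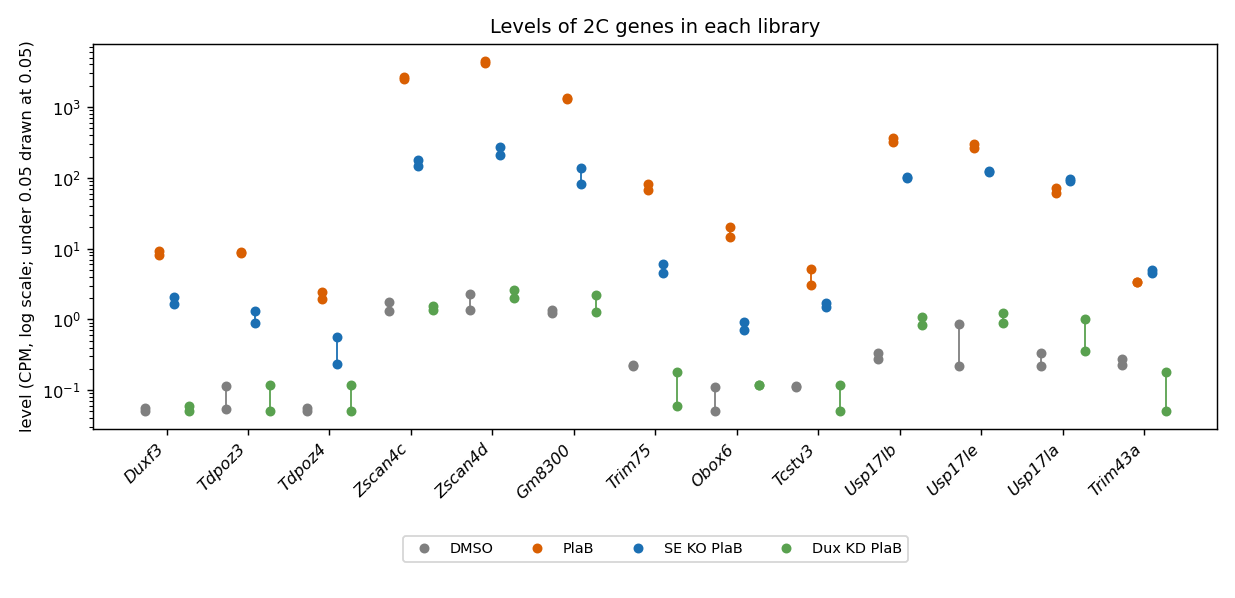
Levels of 2C genes in CPM on a log axis, 1 point per library, in DMSO, PlaB, SE KO PlaB and Dux KD PlaB. Zscan4c went from 2673 and 2519 CPM in PlaB to 178 and 145 in SE KO PlaB and 1.53 and 1.37 in Dux KD PlaB, and Usp17la from 72.2 and 61.2 to 90.5 and 97.7 and then to 0.354 and 1.02.

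**Figure D2:**
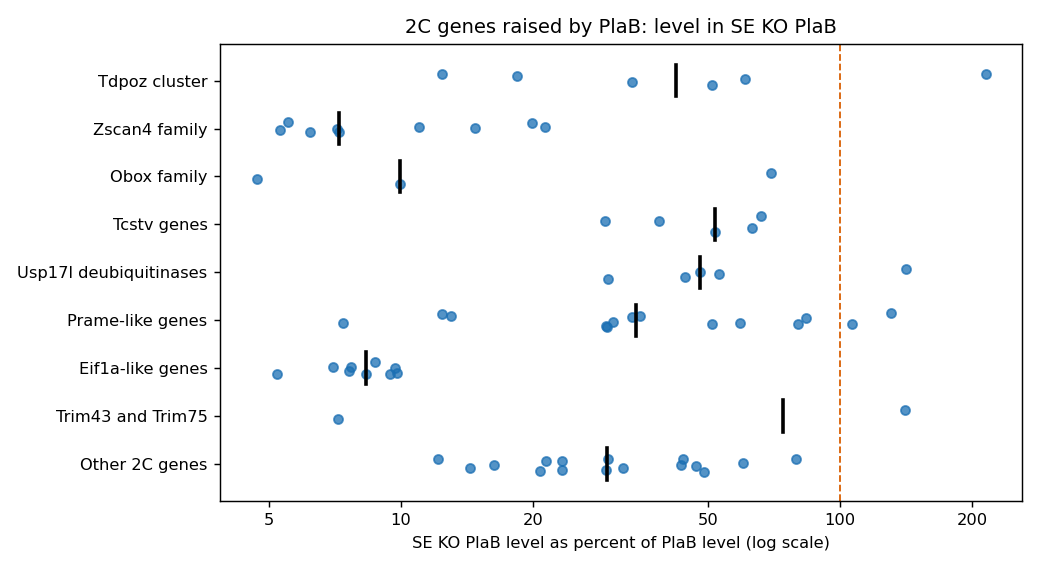
SE KO PlaB level as a percentage of the PlaB level on a log axis, 1 point for each 2C gene raised by PlaB, by family, with the family median as a bar. The medians run from 7.22% in the Zscan4 family to 52.0% among the Tcstv genes with at least 3 genes shown.

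Zscan4 proteins act in telomere lengthening and mark the 2C-like state. All 9 Zscan4 genes and pseudogenes fell, with a median log2 fold change of -3.79. Zscan4c was at 1.76 and 1.32 CPM in DMSO, 2673 and 2519 in PlaB and 178 and 145 in SE KO PlaB (log2 fold change -4.01 ± 0.10, adjusted p = 3.45e-22). Zscan4d was at 2.27 and 1.37 CPM in DMSO, 4221 and 4408 in PlaB and 270.3 and 207 in SE KO PlaB (log2 fold change -4.18 ± 0.13). Zscan4e, at 650.3 and 669 CPM in PlaB and 145 and 136 in SE KO PlaB, fell least of the family (log2 fold change -2.23 ± 0.09). Both SE KO PlaB libraries lay below both PlaB libraries and above both DMSO libraries at all of these genes. In Dux KD PlaB, Zscan4c was at 1.53 and 1.37 CPM, within the range of DMSO.

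The Eif1a-like genes, copies related to a translation initiation factor, also fell in all 9 tested members, with a median of -3.58. Gm8300 was at 1322 and 1314 CPM in PlaB and at 138 and 81.98 in SE KO PlaB (log2 fold change -3.58 ± 0.17). Gm8300 was chosen after its values were seen. Gm2022 went from 113 and 113 CPM in PlaB to 6.89 and 4.89 in SE KO PlaB (log2 fold change -4.25 ± 0.19, adjusted p = 4.36e-17), from a DMSO level of 0.113 and 0.0548. Both stayed above DMSO in both SE KO PlaB libraries.

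Obox6, an oocyte and 2C homeobox gene, fell from 19.9 and 14.4 CPM in PlaB to 0.91 and 0.699 in SE KO PlaB (log2 fold change -4.40 ± 0.38, adjusted p = 3.85e-11). Trim75, an E3 ligase gene that is a Dux target, fell from 80.9 and 67.6 to 6.15 and 4.52 CPM (log2 fold change -3.79 ± 0.19). Trim43a of the same list was at 3.39 and 3.36 CPM in PlaB and 4.46 and 5.03 in SE KO PlaB, with no call (log2 fold change 0.49 ± 0.30, adjusted p = 0.148), and was picked after its values were seen. The groups did not overlap at Obox6 and Trim75, where SE KO PlaB was the lower, nor at Trim43a, where it was the higher.

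Duxf3, the Dux gene itself, fell from 9.25 and 8.21 CPM in PlaB to 1.65 and 2.097 in SE KO PlaB (log2 fold change -2.22 ± 0.35, adjusted p = 3.02e-06) and stood at 0.0567 and 0 in DMSO. Gm4340, another gene whose window holds the Dux motif, was at 135 and 323 CPM in PlaB and 15.6 and 59.3 in SE KO PlaB (log2 fold change -2.62 ± 0.43), with a wide spread in each pair of libraries and no overlap between the groups. AF067061, also with a motif and chosen after its values were seen, was at 9.004 and 6.35 CPM in PlaB and 3.597 and 4.38 in SE KO PlaB and was not called (log2 fold change -0.94 ± 0.19). Zfp352, a zinc finger gene of the 2C stage, fell from 5.57 and 3.9 to 1.603 and 1.17 CPM (log2 fold change -1.76 ± 0.25). Sp110, a nuclear body gene, fell from 13.7 and 11.5 to 2.56 and 3.31 CPM (log2 fold change -2.10 ± 0.28). Genes with and without the motif were thus found on both sides of the call.

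The Usp17l genes encode deubiquitinating enzymes, and 3 of 5 fell, with a median of -1.06. Usp17lb was at 370.4 and 319 CPM in PlaB and 100.1 and 104 in SE KO PlaB (log2 fold change -1.76 ± 0.11, adjusted p = 6.01e-14). Usp17le was at 261 and 299 CPM in PlaB and 126 and 122 in SE KO PlaB (log2 fold change -1.18 ± 0.10). Usp17la was at 72.2 and 61.2 CPM in PlaB and 90.5 and 97.7 in SE KO PlaB, with both SE KO PlaB libraries above both PlaB libraries but under the fold threshold (log2 fold change 0.50 ± 0.10, adjusted p = 0.000105). Usp17la was named after its values were seen. Usp17ld fell (log2 fold change -1.06 ± 0.15) and lost its call under 3 alternatives, being near the fold threshold.

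Prame-like genes, leucine-rich repeat genes of germ cells and the early embryo, fell in 7 of 16 tested members and rose in 2, with a median of -1.24. BC080695 fell from 54.2 and 45.03 CPM in PlaB to 4.204 and 3.12 in SE KO PlaB (log2 fold change -3.75 ± 0.20). Gm13119 fell from 139.9 and 122 to 18.03 and 16.03 CPM (log2 fold change -2.94 ± 0.14). Pramel1 went the other way, from 4.03 and 3.34 CPM in DMSO and 0.581 and 0.635 in PlaB to 12.3 and 16.1 in SE KO PlaB (log2 fold change 4.53 ± 0.24, adjusted p = 9.7e-16). Pramel1 was thus above DMSO in both SE KO PlaB libraries after being below it in both PlaB libraries. Of the 5 Tcstv genes, 2 fell, among them Tcstv3, from 5.18 and 3.08 to 1.47 and 1.72 CPM (log2 fold change -1.36 ± 0.26), which was not called without PlaB replicate 1 (-0.95), and no Tcstv gene was called without it.

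The genes of the Tdpoz cluster were low under PlaB, at 9.02 CPM or less in every PlaB, SE KO PlaB and DMSO library, whereas under Dux OE Tdpoz3 was at 35.3 and 38.4 CPM and in SE KO Dux OE at 8.97 and 6.83. Of 18 listed members 14 were in the table and 11 were tested, 7 of which were above 3 counts in a PlaB or SE KO PlaB library. Of the 11 tested members 3 fell, a share near the 26.1% of all genes that were lower. Their median was -0.70, or -0.97 over the 7 with floored levels. Tdpoz3 was at 0.113 and 0.0548 CPM in DMSO, 8.57 and 9.02 in PlaB and 1.3 and 0.885 in SE KO PlaB (log2 fold change -2.99 ± 0.26, adjusted p = 5.43e-11). Tdpoz4 was at 1.94 and 2.404 CPM in PlaB and 0.563 and 0.233 in SE KO PlaB (log2 fold change -2.41 ± 0.39, adjusted p = 5.04e-06). Both genes were lower in both SE KO PlaB libraries than in both PlaB libraries and higher than in both DMSO libraries. Spopfm1 was at 5.32 and 2.63 CPM in PlaB and 1.65 and 1.03 in SE KO PlaB (log2 fold change -1.55 ± 0.35), and it was not called without PlaB replicate 1 (-0.97). Tdpoz8 was at 2.28 and 2.13 CPM in PlaB and 1.603 and 0.652 in SE KO PlaB and was not called (log2 fold change -0.95 ± 0.37). Spopfm2 was at 0.194 and 0.227 CPM in PlaB and 0.39 and 0.513 in SE KO PlaB, also with no call (log2 fold change 1.07 ± 0.58, adjusted p = 0.104). Tdpoz1, Tdpoz2, Tdpoz5, Tdpoz6, Tdpoz7 and Tdpoz9 were at or under 3 counts in every one of these libraries. The deleted element is not itself counted. The lower Tdpoz3 and Tdpoz4 levels cannot check the genotype label, since 50 of the 79 tested 2C genes were lower in SE KO PlaB as well. In Dux KD PlaB, 6 of the 11 tested Tdpoz members were also lower than in PlaB, against 28.8% of all genes.

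Around the cluster, in mm10 from 1 Mb before Tdpoz4 to 1 Mb after Tdpoz3 (chr3:93796398-93827117 for the interval itself), 43 of 114 genes were tested. Of these 20 were lower in SE KO PlaB than in PlaB (46.5%) and 2 were higher (4.65%), against 26.1% and 25.9% of all tested genes. Their median log2 fold change was -1.59. Many genes of this window had been raised by PlaB, and of all PlaB-raised genes 63.71% were lower, with a median of -1.56. A local effect of the deletion was not tested. Tdpoz3, Tdpoz4 and Spopfm1 of the Tdpoz list were among the lower genes. Them4, a mitochondrial thioesterase gene, fell from 31.4 and 34.5 CPM in PlaB to 5.63 and 4.38 in SE KO PlaB (log2 fold change -2.71 ± 0.16), with 2.78 and 2.85 in DMSO. Tdrkh, which is needed for piRNA trimming, fell from 87.03 and 70.6 to 22.5 and 22.8 CPM (log2 fold change -1.80 ± 0.12). The 2 genes that were higher were the calcium-binding gene S100a11 (15.3 and 14.1 and then 30.9 and 49.7 CPM, log2 fold change 1.45 ± 0.15) and the sorting nexin Snx27 (32.2 and 31.2 and then 81.6 and 93.4 CPM, log2 fold change 1.46 ± 0.08). Of the lower genes, Gm9131 and Celf3 were not called without SE KO PlaB replicate 2 or without PlaB replicate 1.

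**Figure D3:**
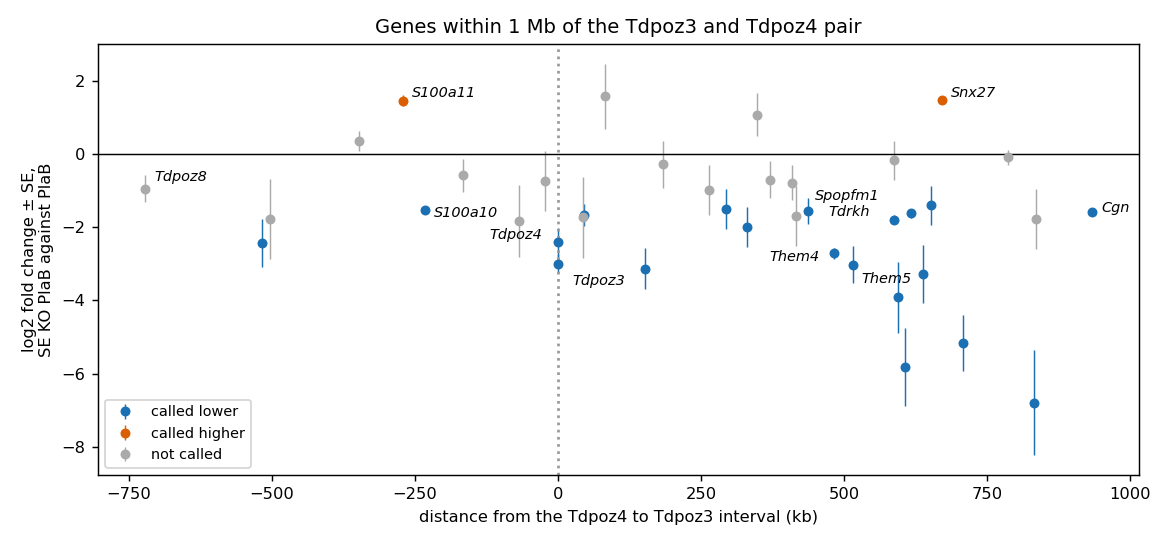
Log2 fold change of SE KO PlaB against PlaB for 39 of the 43 tested genes within 1 Mb of the Tdpoz3 to Tdpoz4 interval on chromosome 3. Genes at or under 3 counts in every PlaB and SE KO PlaB library are left out. Distance is from the nearer end of that interval, and called genes are coloured. Most called genes lie below 0 on both sides of the interval, and S100a11 and Snx27 lie above it.

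Further genes that PlaB turned on were lost outright. Of the 10 genes with the largest fall, all were single-exon models of little-known function (TEC models, which are annotated loci that await experimental support, processed pseudogenes and 1 miscellaneous RNA gene), and each was at or under 3 counts in every DMSO and every SE KO PlaB library. Gm27782 was at 41.1 and 40.6 CPM in PlaB and 0 and 0 in SE KO PlaB, so that it was at least 292-fold lower against a floor of 3 counts per library. Gm37940 was at 31.3 and 27.5 CPM in PlaB and 0 and 0.0466 in SE KO PlaB, at least 210-fold lower. C530043K16Rik was at 16.7 and 15.4 CPM in PlaB and 0 and 0 in SE KO PlaB, at least 115-fold lower. The other 7, Gm37219, C230071H17Rik, Gm38142, Gm7805, Gm42856, Gm13827 and Gm49683, were at least 56.6-fold to 80.8-fold lower. In Dux KD PlaB these 10 genes were also at or under 3 counts in every library. Where such models overlap a gene on the other strand, reads cannot be assigned with certainty, since the strand setting of the counting was not given in the sources used here.

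Several housekeeping pathways that PlaB had raised were back near the DMSO level in SE KO PlaB. Of all genes, 32.3% were raised by PlaB and 26.1% were lower in SE KO PlaB than in PlaB. Of all PlaB-raised genes, 63.71% were lower than in PlaB and 36.41% were still called higher than DMSO. Replication-dependent histone genes, whose transcripts normally lack a poly(A) tail and so are poorly seen in such libraries, were raised by PlaB in 37 of 52 tested members (median 2.64). In SE KO PlaB 41 were lower than in PlaB (median -2.89) and 0 of the 37 were called higher than DMSO by edgeR or DESeq2, also 0 at an unadjusted p under 0.05. H2ac8 was at 1.19 and 1.53 CPM in DMSO, 85.2 and 77.1 in PlaB and 0.91 and 0.652 in SE KO PlaB (log2 fold change -6.68 ± 0.22). H1f5, a linker histone gene, was at 1.42 and 1.21 CPM in DMSO, 40.7 and 62.9 in PlaB and 0.217 and 1.17 in SE KO PlaB (log2 fold change -6.24 ± 0.36). At both genes the PlaB libraries stood alone above the rest.

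The shares given for the histone genes also apply to the respiratory chain and proteasome counts here. Nuclear genes of the mitochondrial respiratory chain behaved likewise. PlaB raised 39 of 65 (median 1.36), 42 were lower in SE KO PlaB than in PlaB (median -1.55), and 0 of the 39 were called higher than DMSO there by edgeR or DESeq2, with 8 at an unadjusted p under 0.05. Ndufa2, a complex I subunit, was at 17.9 and 15.7 CPM in DMSO, 235 and 190.5 in PlaB and 10.96 and 14.8 in SE KO PlaB (log2 fold change -4.05 ± 0.13, adjusted p = 3.81e-20). Ndufs5, of the same complex, was at 4.195 and 3.29, 74.8 and 62.8 and 4.38 and 6.94 CPM in that order (log2 fold change -3.61 ± 0.20). The SE KO PlaB libraries lay above both DMSO libraries at Ndufs5 and below both at Ndufa2, and neither gene was called against DMSO. Proteasome subunits were raised in 17 of 31 members by PlaB, and 19 were lower in SE KO PlaB (median -1.16), among them the catalytic subunit Psmb6 at 183 and 170.5 CPM in DMSO, 1285 and 1141 in PlaB and 157 and 249.99 in SE KO PlaB (log2 fold change -2.58 ± 0.13). Of the 17, 0 were called higher than DMSO in SE KO PlaB by edgeR or DESeq2, with 5 at an unadjusted p under 0.05.

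Mitochondrially encoded transcripts ran opposite to the nuclear genes of the same complexes. PlaB lowered 12 of 15 (median -3.36), against 26.6% of all genes. In SE KO PlaB 14 of 15 were higher than in PlaB (median 3.95), against 25.9% of all genes, with a median of 0.59 against DMSO. The cytochrome oxidase subunit mt-Co2 was at 229 and 334 CPM in DMSO, 2.13 and 1.86 in PlaB and 247 and 195 in SE KO PlaB (log2 fold change 6.79 ± 0.23). The exception was mt-Rnr2, the large mitochondrial ribosomal RNA, at 610.2 and 567 CPM in DMSO, 6584 and 7248 in PlaB and 1664 and 1579 in SE KO PlaB (log2 fold change -2.09 ± 0.10), named as the only member that was lower. Mitochondrial genes took 1.40% and 1.56% of counts in PlaB, 5.20% and 4.44% in SE KO PlaB and 3.11% and 3.13% in DMSO.

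Genes of the pluripotent state that PlaB lowered came back to differing extents. Of 30 core and naive pluripotency genes, PlaB had lowered 14 and raised 5. In SE KO PlaB 12 were higher than in PlaB and 5 lower (median 0.35), against 25.9% and 26.1% of all genes. Set against DMSO, 7 were called lower in SE KO PlaB (median -0.52), 3 of them among the 14 that PlaB had lowered. Sox2 was at 594 and 590.1 CPM in DMSO, 21.5 and 30.8 in PlaB and 392 and 412 in SE KO PlaB (log2 fold change 3.94 ± 0.12, adjusted p = 2.39e-20). Nanog was at 887 and 935 CPM in DMSO, 69.6 and 78.6 in PlaB and 644 and 634 in SE KO PlaB (log2 fold change 3.11 ± 0.08). The transcription factor genes Pou5f1 (log2 fold change 1.33 ± 0.10), Klf4 (log2 fold change 1.87 ± 0.16) and Klf2 (log2 fold change 4.29 ± 0.14) were also higher than in PlaB. Against DMSO, the log2 fold changes of these 5 genes in SE KO PlaB lay between -0.93 and 0.12. Dppa3, a maternal factor that PlaB had raised, was at 1.13 and 1.699 CPM in DMSO, 11.9 and 10.8 in PlaB and 0.477 and 0.466 in SE KO PlaB (log2 fold change -4.57 ± 0.35) and so ended below DMSO. The growth factor gene Fgf4 was back only in part, at 321 and 310.4 CPM in DMSO, 4.45 and 7.03 in PlaB and 80.3 and 97.8 in SE KO PlaB (log2 fold change 3.95 ± 0.13).

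Formative and primed genes were higher than in PlaB at 14 of 22 members and lower at 2 (median 1.63), and 11 were called lower than DMSO in SE KO PlaB, against 17 in PlaB. Foxd3, a transcription factor of the epiblast, was at 7.09 and 8 CPM in DMSO, 0.194 and 0.181 in PlaB and 21.8 and 23.02 in SE KO PlaB (log2 fold change 6.85 ± 0.26). Zic2 was back only in part, at 28.3 and 31.7 CPM in DMSO, 0.242 and 0.0453 in PlaB and 2.34 and 2.097 in SE KO PlaB (log2 fold change 3.92 ± 0.80). The SE KO PlaB libraries were thus above DMSO for Foxd3 and below it for Zic2.

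Lists of RNA processing and chromatin repression differed in how far they moved back, against 25.9% of all genes higher than in PlaB. Of 20 nonsense-mediated decay factors, 12 had been lowered by PlaB and 11 were higher in SE KO PlaB than in PlaB (median 1.16), among them the helicase gene Upf1, at 177 and 178 CPM in DMSO, 22.8 and 27.7 in PlaB and 163 and 176 in SE KO PlaB (log2 fold change 2.74 ± 0.10). Of 23 SR splicing factors, 6 were higher and 2 lower (median 0.29), a share near that of all genes. Spliceosome core genes were higher at 9 of 38 and lower at 6 (median -0.13), and snoRNA hosts and transcripts sensitive to decay higher at 4 of 21 and lower at 5 (median -0.29). The SR gene with the largest change was Srsf1, at 765 and 744 CPM in DMSO, 32.4 and 40.5 in PlaB and 649 and 580.3 in SE KO PlaB (log2 fold change 4.07 ± 0.10). Of the 13 genes of the SF3A and SF3B complex, which holds the PlaB target, 5 were higher and 2 lower (median 0.37). Sf3b1 itself was at 732 and 734 CPM in DMSO, 483 and 466 in PlaB and 1078 and 982 in SE KO PlaB (log2 fold change 1.12 ± 0.08), and it fell just under the fold threshold with RLE size factors (0.99). Of 40 upstream repressors and activators of Dux, PlaB lowered 19 and 18 were higher in SE KO PlaB than in PlaB (median 0.73). The corepressor gene Trim28 was at 1498 and 1512 CPM in DMSO, 208 and 204 in PlaB and 1334 and 1862 in SE KO PlaB (log2 fold change 2.96 ± 0.11). Of 17 DNA methylation genes 8 were higher and 0 lower by edgeR or DESeq2, with 3 lower at an unadjusted p under 0.05, and the higher ones included the maintenance methyltransferase Dnmt1 (103 and 112 CPM in PlaB and 354 and 379 in SE KO PlaB, log2 fold change 1.77 ± 0.07).

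Cytosolic ribosomal protein genes were lowered by PlaB at 41 of 81 members (median -1.003). In SE KO PlaB 22 were higher than in PlaB and 7 lower (median 0.42). The median was 0.62 without SE KO PlaB replicate 1 and 0.17 without replicate 2. Since 25.9% of all genes were higher than in PlaB and 26.1% lower, the share of higher members was near that of all genes. Rps2 was at 2270 and 2149 CPM in DMSO, 87.2 and 74.4 in PlaB and 1003 and 1735 in SE KO PlaB (log2 fold change 4.08 ± 0.16), where both SE KO PlaB libraries lay between the other groups. Interferon and antiviral genes, raised by PlaB at 15 of 25 members, were lower in SE KO PlaB than in PlaB at 10 and higher at 1 (median -0.32). Dhx58, a cytosolic RNA sensor, was at 1.36 and 0.932 CPM in DMSO, 11.4 and 8.07 in PlaB and 1.17 and 1.03 in SE KO PlaB (log2 fold change -3.14 ± 0.29). Antigen presentation genes were lower at 8 of 20 members and higher at 0 by edgeR, by DESeq2 or at an unadjusted p under 0.05 (median -0.94), and the lower ones included H2-M3 at 12.6 and 12.4 CPM in PlaB and 1.603 and 1.54 in SE KO PlaB (log2 fold change -2.99 ± 0.25).

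Glycolysis genes were lowered by PlaB at 15 of 24 members (median -1.78), against 26.6% of all genes. SE KO PlaB was lower than DMSO at 17 (median -1.84, against 11% of all genes), 12 of them the same genes. Of these 12, 8 were not called against PlaB, 3 were higher than in PlaB and 1 was lower. Over the whole list 6 were higher and 6 lower than in PlaB, close to the shares of all genes. Tpi1, triosephosphate isomerase, was at 734 and 744 CPM in DMSO, 91.1 and 92.01 in PlaB and 62.4 and 92.9 in SE KO PlaB (log2 fold change -0.24 ± 0.14), and Pgk1, phosphoglycerate kinase, at 1673 and 1594, 287 and 273 and 230.3 and 334 in that order (log2 fold change 0.01 ± 0.13). Both were chosen after their values were seen. Gapdh was an exception, rising from 26.9 and 27.7 CPM in PlaB to 433 and 595 in SE KO PlaB against 1133 and 907 in DMSO (log2 fold change 4.24 ± 0.20). Aldoc was low in SE KO PlaB alone of these groups, at 31.3 and 31.6 CPM in DMSO, 32.1 and 33.2 in PlaB and 4.16 and 5.64 in SE KO PlaB (log2 fold change -2.74 ± 0.21).

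Integrated stress response genes, which ATF4 drives, were lowered by PlaB at 22 of 39 members (median -1.31), against 26.6% of all genes. In SE KO PlaB 24 were lower than DMSO (median -1.43), against 11% of all genes, with 16 lower in both groups. Against PlaB, 8 of the 39 were higher in SE KO PlaB and 13 lower (median -0.46, or -0.13 and -0.74 without 1 or the other SE KO PlaB library). Nupr1, a stress-induced chromatin protein gene, was at 15.4 and 13.8 CPM in DMSO, 7.503 and 6.53 in PlaB and 0.693 and 0.373 in SE KO PlaB (log2 fold change -3.69 ± 0.29). Ddit3, which encodes CHOP, had risen with PlaB and ended below DMSO, at 19.3 and 19.3, 42.6 and 37.5 and 9.62 and 7.83 CPM in that order (log2 fold change -2.20 ± 0.13). Slc7a5, an amino acid transporter gene, was back in part, from 6.53 and 7.39 CPM in PlaB to 115 and 144 in SE KO PlaB with 547 and 555 in DMSO (log2 fold change 4.21 ± 0.13). Cholesterol synthesis genes were lower than DMSO at 10 of 24 members in SE KO PlaB and at 6 in PlaB, and against PlaB 3 were higher and 6 lower.

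p53 targets were higher than DMSO at 15 of 36 members in PlaB (median 0.58), against 32.3% of all genes. In SE KO PlaB 23 were higher (median 1.48), against 17.1% of all genes, and 13 of the 15 stayed higher. Mdm2, the ubiquitin ligase of p53, was at 71.3 and 65.5 CPM in DMSO, 1342 and 1445 in PlaB and 468 and 397 in SE KO PlaB (log2 fold change -1.69 ± 0.09). The cell cycle inhibitor gene Cdkn1a was at 74.3 and 72.9 CPM in DMSO, 499 and 495 in PlaB and 220.3 and 306 in SE KO PlaB (log2 fold change -0.92 ± 0.12), not called here and called lower with RLE size factors (-1.05) or without SE KO PlaB replicate 2 (-1.17). Phlda3, an AKT inhibitor gene, was higher only in SE KO PlaB among the 3 groups, at 23.8 and 23.02 CPM in DMSO, 19.02 and 17.96 in PlaB and 105 and 156 in SE KO PlaB (log2 fold change 2.82 ± 0.12, adjusted p = 2.4e-17). The apoptosis gene Bbc3, lowered by PlaB, was at 15.5 and 17.3, 3.29 and 3.45 and 26.7 and 29.8 CPM in the same order (log2 fold change 3.06 ± 0.16). Some of these targets were thus lower and others higher than in PlaB, with 11 called higher and 7 lower.

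Lineage lists differed among themselves, and primitive endoderm and Hox genes had the largest shares of members higher than in PlaB, against 25.9% of all genes. Trophectoderm genes were higher than in PlaB at 6 of 23 and lower at 4, Nodal and mesendoderm genes higher at 5 of 16 and lower at 7, and neural genes higher at 6 of 17 and lower at 2. Against DMSO these 3 lists had medians of 0.76, -1.03 and -0.41 in SE KO PlaB. Primitive endoderm genes were higher than in PlaB at 15 of 27 members and lower at 5 (median 1.29), and higher than DMSO at 18 in SE KO PlaB and at 16 in PlaB. Cubn, an endocytic receptor of visceral endoderm, was at 0.227 and 0.329 CPM in DMSO, 2.03 and 1.77 in PlaB and 18.4 and 17.2 in SE KO PlaB (log2 fold change 3.22 ± 0.23, adjusted p = 7.25e-13). The endoderm factor gene Gata6 was at 1.64 and 1.64, 5.91 and 5.53 and 34.2 and 41.1 CPM in that order (log2 fold change 2.72 ± 0.17), and was chosen after its values were seen. Foxa2 was at 0 counts in DMSO and PlaB and at 0.953 and 1.398 CPM in SE KO PlaB. The basement membrane gene Col4a2 was at 38.3 and 43.8 CPM in DMSO, 5.03 and 7.35 in PlaB and 91.05 and 103 in SE KO PlaB (log2 fold change 3.97 ± 0.18).

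Hox genes were higher than in PlaB at 15 of 34 members and lower at 4 (median 1.003, or 0.28 with floored levels), most at low levels. Hoxb9 was at 2.21 and 2.74 CPM in DMSO, 1.98 and 1.54 in PlaB and 15.9 and 14.1 in SE KO PlaB (log2 fold change 3.09 ± 0.18). Hand1, a trophectoderm and mesoderm factor, was at 0.5102 and 0.274 CPM in DMSO, 0.629 and 2.13 in PlaB and 13.4 and 19.4 in SE KO PlaB (log2 fold change 3.55 ± 0.36). The signalling gene Nodal was at 38.7 and 40.1 CPM in DMSO, 59.2 and 58.95 in PlaB and 172 and 251 in SE KO PlaB (log2 fold change 1.84 ± 0.11), while the Nodal inhibitor gene Lefty1 fell from 47.5 and 47.8 to 5.37 and 7.503 CPM (log2 fold change -2.89 ± 0.15). The imprinted growth factor gene Igf2 was at 0.0567 and 0 CPM in DMSO, 0 and 0.181 in PlaB and 5.37 and 5.36 in SE KO PlaB (log2 fold change 5.75 ± 0.58). At Hoxb9, Hand1, Nodal and Igf2 both SE KO PlaB libraries lay above all DMSO and PlaB libraries. In Dux KD PlaB, Hoxb9 was at 2.42 and 2.51 CPM, Hand1 at 0.648 and 1.02 and Cubn at 14.4 and 15.4, which placed Cubn near its SE KO PlaB level and Hoxb9 and Hand1 nearer their DMSO levels. Without an uninduced SE KO library, a difference present in the edited cells before PlaB cannot be told apart.

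Lists of cell adhesion and signalling were mixed, read against 25.9% of all genes higher and 26.1% lower than in PlaB. Retinoic acid receptor and metabolism genes were higher at 5 of 19 and lower at 6 (median -0.74). Of 28 adhesion genes 16 were higher than in PlaB and 3 lower (median 1.15), with the epithelial cadherin gene Cdh1 at 502 and 505 CPM in DMSO, 61.6 and 63.4 in PlaB and 405 and 467 in SE KO PlaB (log2 fold change 2.80 ± 0.09). Of 33 collagen genes 12 were higher and 5 lower. Of 14 genes of the LIF and STAT3 pathway, which keeps mouse cells undifferentiated, 5 were higher and 1 lower, among them the shared receptor gene Il6st at 87.5 and 82.4 CPM in DMSO, 6.29 and 7.53 in PlaB and 54.99 and 55.9 in SE KO PlaB (log2 fold change 3.00 ± 0.10). Of 22 FGF and ERK pathway genes 8 were higher and 4 lower, and of 17 Wnt and TCF targets 6 were higher and 3 lower. The Wnt inhibitor gene Notum was at 10.8 and 9.43 CPM in DMSO, 0.871 and 0.862 in PlaB and 30.03 and 30.1 in SE KO PlaB (log2 fold change 5.11 ± 0.19). Notum was thus highest in SE KO PlaB, whereas the Wnt target and receptor gene Lgr5, which PlaB had turned on, fell from 4.89 and 3.13 to 0.563 and 0.326 CPM (log2 fold change -3.14 ± 0.65).

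Other lists were mixed, read against 25.9% of all genes higher and 26.1% lower than in PlaB. The counts for DNA replication, mitotic spindle and germline genes below were near or under these shares. Cell cycle genes (cyclins, kinases and inhibitors) were higher at 13 of 31 and lower at 7, with the inhibitor gene Cdkn1b rising from 4.65 and 7.75 to 47.7 and 51.5 CPM (log2 fold change 2.99 ± 0.16) and Cdkn2d falling from 79.4 and 65.5 to 12.6 and 11.7 CPM (log2 fold change -2.58 ± 0.12). DNA replication genes were lower at 8 of 37 and higher at 1, with the clamp loader subunit Rfc4 at 88.6 and 81.9 CPM in DMSO, 281 and 247 in PlaB and 51.5 and 68.3 in SE KO PlaB (log2 fold change -2.14 ± 0.10). Mitotic spindle genes were higher at 7 of 30 and lower at 7, and Pttg1, which encodes securin, stayed above DMSO at 22.8 and 27.4, 511 and 414 and 119 and 134 CPM in that order (log2 fold change -1.87 ± 0.10). Lysosome and autophagy genes were lower at 10 of 33 and higher at 5, unfolded protein response genes lower at 7 of 22 and higher at 4, and nucleolar ribosome biogenesis genes higher at 15 of 44 and lower at 8. Germline genes were higher at 7 of 41 and lower at 8, and 15 of the 22 that PlaB had raised were called higher than DMSO in SE KO PlaB. The sperm surface gene Tex101 was kept in part, at 0.454 and 0.0548, 23.9 and 25.5 and 3.38 and 6.43 CPM in the same order (log2 fold change -2.34 ± 0.28).

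The largest rises were of genes that PlaB had nearly silenced. Peg10, an imprinted gene derived from a retrotransposon, was at 1012 and 1031 CPM in DMSO, 5.08 and 6.62 in PlaB and 769 and 852 in SE KO PlaB (log2 fold change 7.11 ± 0.21). Chmp4b, an ESCRT component, was at 112 and 115, 0.629 and 0.862 and 90.4 and 105 CPM in the same order (log2 fold change 7.02 ± 0.14), and Tmem259, a membrane protein gene, at 52.7 and 59.4, 0.145 and 0.6802 and 58.9 and 55.6 (log2 fold change 7.07 ± 0.21). Islr2 was at 0 and 0.136 CPM in PlaB and 31.9 and 35.9 in SE KO PlaB, at least 233-fold higher against the floor. The remaining 6 of the 10 were mt-Th, mt-Nd4l, mt-Nd3, Lrrn2, Notumos and the pseudogene Gm17082. Of them Lrrn2 rose above DMSO, at 4.25 and 4.77 CPM in DMSO, 0.2904 and 0.0907 in PlaB and 26.7 and 29.4 in SE KO PlaB (log2 fold change 7.18 ± 0.25).

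**Figure D4:**
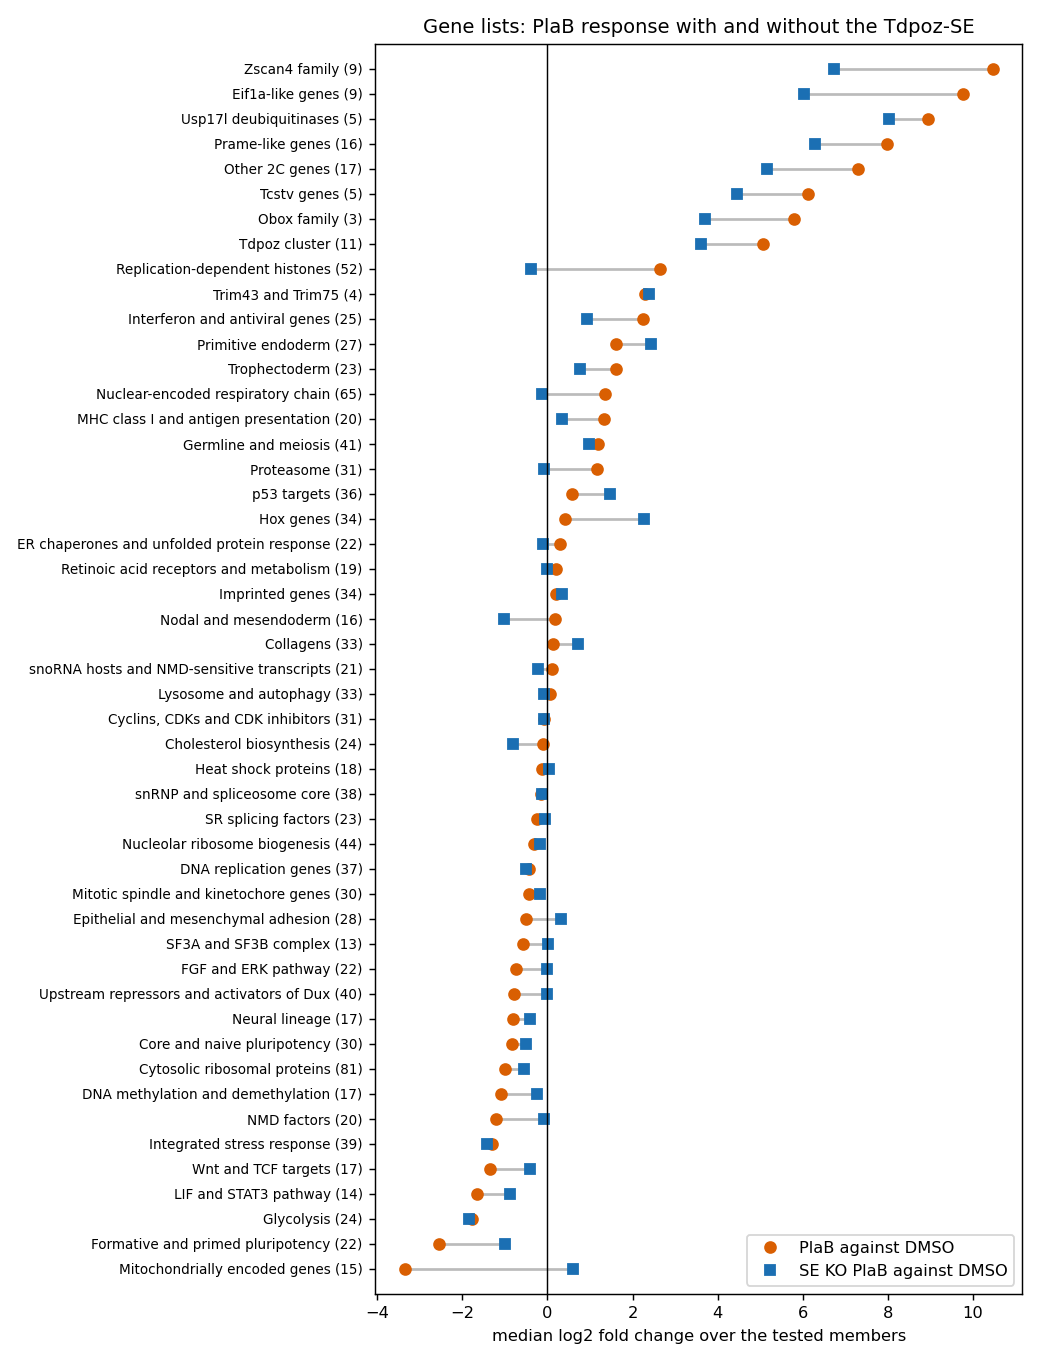
Median log2 fold change against DMSO of each gene list, in PlaB and in SE KO PlaB. Histone genes moved from 2.64 to -0.39 and mitochondrially encoded genes from -3.36 to 0.59, glycolysis genes stood at -1.78 and -1.84, and primitive endoderm genes stood at 1.62 and 2.44.

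Gene structure went with the response. In PlaB against DMSO the median log2 fold change fell from 0.98 for genes with 1 exon (3499 genes) through 0.72 for 2 to 5 exons, 0.36 for 6 to 10 and -0.21 for 11 to 20 to -0.80 for over 20 exons (2397 genes). In SE KO PlaB against DMSO the same classes lay between 0.00 and 0.31. In SE KO PlaB against PlaB the medians ran from -0.46 for 1 exon to 0.79 for over 20 exons, and 9.10% of the genes with over 20 exons were lower against 36.6% of those with 1. Among protein-coding genes alone the order held from 2 to 5 exons (-0.40) to over 20 (0.80), and genes with 1 exon were apart at 0.25. By class of transcript, the TEC models had a median of 2.51 in PlaB against DMSO and 0.80 in SE KO PlaB against DMSO. The values were 2.33 and 1.35 for unprocessed pseudogenes, 1.37 and 0.78 for long intergenic RNAs, 1.30 and 0.67 for antisense RNAs and 0.00 and 0.04 for protein-coding genes. The gradient by exon number in Dux KD PlaB against PlaB was close to that in SE KO PlaB against PlaB, from -0.57 for 1 exon to 0.76 for over 20, both being set against the same PlaB libraries.

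**Figure D5:**
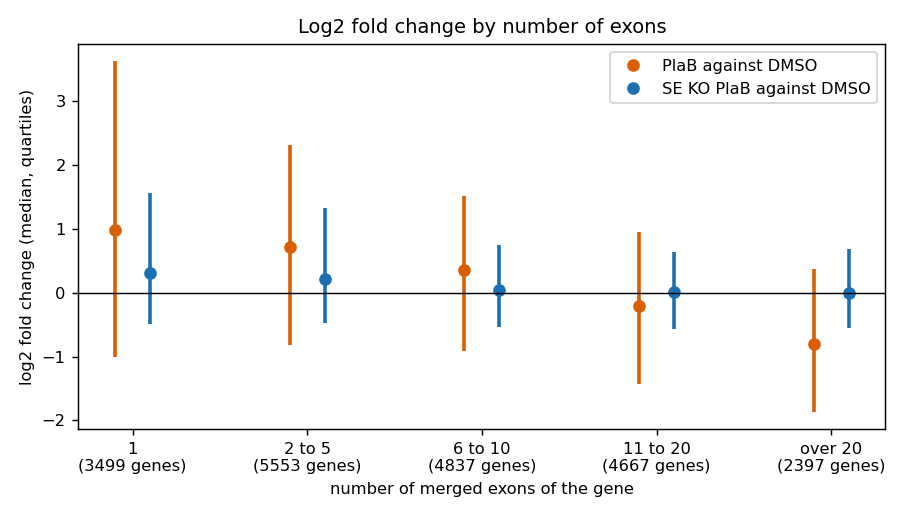
Median log2 fold change, with quartiles as bars, by number of exons for PlaB against DMSO and SE KO PlaB against DMSO. The PlaB medians run from 0.98 at 1 exon to -0.80 at over 20 exons, and the SE KO PlaB medians stay between 0.00 and 0.31.

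Genes that Dux can induce were examined as a class of their own. Dux OE raised 1547 genes against untreated ESC (7.38%). PlaB raised 1030 of these against DMSO (66.58%, against 32.3% of all genes) and SE KO PlaB 720 (46.54%, against 17.1%). In SE KO PlaB 750 were lower than in PlaB (48.48%), against 26.1% of all genes, and 152 were higher. The class is rich in PlaB-raised genes, of which 63.71% were lower, so 26.1% is a low yardstick for it. A dependence particular to this class was not tested. Without the members of the 2C lists, 701 of 1475 were lower (47.53%). In Dux KD PlaB 1000 of the 1547 were lower than in PlaB (64.64%), against 28.8% of all genes.

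SE KO PlaB and Dux KD PlaB were then compared directly, as both had lost much of the PlaB response. SE KO PlaB was higher at 2611 genes (12.5%) and lower at 1900 (9.07%), and the distance between them was 113.7, with Dux KD PlaB the nearer to DMSO (82.42). The 2C genes stood out, with 69 of 79 higher in SE KO PlaB and 0 lower by edgeR, by DESeq2 or at an unadjusted p under 0.05 (median 5.31). Usp17lb was at 100.1 and 104 CPM in SE KO PlaB and 0.825 and 1.08 in Dux KD PlaB, and Zscan4d at 270.3 and 207 and 2.004 and 2.63. Glycolysis genes were lower in SE KO PlaB at 17 of 24 (median -1.34), cytosolic ribosomal protein genes were lower at 19 of 81 (median -0.79), and primitive endoderm genes were higher at 12 of 27 (median 1.13). In the opposite direction 0 members of these lists were called by edgeR or DESeq2, and 2 of each were at an unadjusted p under 0.05. The glycolysis gene Aldoc was at 4.16 and 5.64 CPM in SE KO PlaB and 44.6 and 44.9 in Dux KD PlaB. Of the 31 proteasome, 20 nonsense-mediated decay and 38 spliceosome core genes 0 were called by edgeR or DESeq2, with medians of 0.00, 0.01 and -0.08. At an unadjusted p under 0.05, 9, 4 and 7 of them were higher and 10, 5 and 13 lower.

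Finally, the effect of the deletion under PlaB was set against its effect under the other inductions by interaction contrasts. Relative to Dux OE, the effect differed at 9452 genes, 5132 more positive under PlaB (24.5%) and 4320 more negative (20.6%). Relative to RA it differed at 10267 genes, 5938 more positive (28.3%) and 4329 more negative (20.7%), or 9808 in all without SE KO RA replicate 1, whose genotype label reads WT. The same 2C lists were lower with the deletion at 28 of 79 genes under Dux OE, where 3.84% of all genes were lower. They were lower at 59 under RA, where 11% of all genes were, and at 50 under PlaB, where 26.1% were. Of the 79, the effect under PlaB was more negative than under Dux OE at 29 and more positive at 7, and against RA more negative at 8 and more positive at 27.

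The families differed in this. For Zscan4, 9 of 9 genes fell under PlaB, 9 under RA and 7 under Dux OE, with medians of -3.79, -3.02 and -1.14, and the effect was more negative under PlaB than under Dux OE at 7. For the Eif1a-like genes 9 of 9 fell under PlaB, whereas under Dux OE 0 were called lower by edgeR and 5 were lower at an unadjusted p under 0.05, and the difference was called at all 9. For Usp17l the medians were -1.06 under PlaB and -3.46 under RA, and the difference was called at 5 of 5. Usp17lb went from 194.4 and 162.5 CPM in RA to 6.84 and 6.89 in SE KO RA, and from 400.3 and 421 in Dux OE to 279.7 and 289 in SE KO Dux OE. The difference of its log2 fold change under PlaB from that under Dux OE was -1.23 ± 0.15, and from that under RA 2.94 ± 0.17. Usp17la, which kept its level under PlaB, went from 166 and 161 CPM in RA to 6.56 and 7.91 in SE KO RA and from 297 and 306 in Dux OE to 201 and 205 in SE KO Dux OE, and its effect under PlaB was more positive than both (differences of 1.07 ± 0.14 and 4.99 ± 0.16 from Dux OE and RA).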

How the data were processed

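The authors sequenced poly(A) RNA (NEBNext Ultra II) and deposited whole-number read counts per gene for the libraries used here. Per the labels, reads were checked with FastQC, trimmed with Trimmomatic, aligned to mm10 with STAR and counted with featureCounts, and DESeq2 was named. Versions and the strand setting were not given in the sources used here. Gene lengths deposited in the same table were used to describe genes by exon length. Gene positions, exons and classes came from the GENCODE vM21 annotation, and promoter windows from RefSeq.

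Counts were fitted with edgeR 4.0.16 (R 4.3.3, TMM scaling, filterByExpr, prior count 0.125, quasi-likelihood F-test) in 1 model over all 26 libraries of 13 groups, so that all groups shared the estimate of spread, and p-values were adjusted (Benjamini-Hochberg) over 20953 genes. Total counts ran from 14401452 to 39402840. A floor of 3 counts per library served for lower bounds, which cover counting error only. The fit was tested on simulated counts. The members and the 51 gene lists were chosen with earlier results of these data known. Named genes were the 10 largest falls and rises at 5 CPM or more without overlap, up to 4 of the strongest called members of each list at 2 CPM or more, a set of fixed names, called genes within 1 Mb of the Tdpoz interval, and the 4 largest called differences of each interaction. Others are marked as chosen after their values were seen. Alternatives were DESeq2 1.42.0, RLE factors, library size only, no filter, adjusted p alone, a replicate block, each library left out, the compared groups alone and ESC in place of DMSO. Not used here were the values of repeats and of other assays.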

Additional observations from a re-analysis of the deposited data

Results flagged for a closer look

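The effect of the deletion under PlaB differed from that under Dux OE at 9452 genes and from that under RA at 10267, by interaction contrasts in edgeR. With replicate 1 of SE KO RA left out, the second count was 9808. Zscan4c had a difference of -2.86 (log2) from Dux OE, with a fall from 811 and 810 CPM in Dux OE to 388 and 343 in SE KO Dux OE, and of -0.84 from RA, under the fold threshold. Usp17lb had differences of -1.23 from Dux OE and 2.94 from RA.

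The largest fitted differences rest on groups at or near 0 counts, so they depend on the prior count and are no bounds. Against Dux OE they were 19.25 for mt-Th and 14.19 for mt-Tc, which were at 0 counts in both SE KO Dux OE libraries, -14.66 for Gm37219, at 0 counts in both Dux OE libraries, and -14.1 for Lyz1, at 4.72 and 7.10 CPM in SE KO Dux OE and 0 in Dux OE and SE KO PlaB. Against RA they were -13.44 for C530043K16Rik, -12.87 for Gm37940 and -12.12 for 5330431K02Rik, which were on in PlaB alone among these 4 groups at 5 CPM or more, and 11.8 for Foxa2. The endoderm factor gene Foxa2 was at 0 CPM in both PlaB libraries and at 0.953 and 1.40 in SE KO PlaB, but fell from 16.5 and 15.5 in RA to 0.605 and 1.02 in SE KO RA.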

How the results depend on the processing

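The count of genes differing between SE KO PlaB and PlaB, 10904 in the model as described, was within 1.5 times under all alternatives run. Called on adjusted p alone, the counts for SE KO PlaB against DMSO went from 5881 to 11761, for SE KO PlaB against Dux KD PlaB from 4511 to 10229, and for Dux-induced genes lower in SE KO PlaB from 750 to 1416, since the fold threshold was removed. Leaving out 1 library at a time gave 10299 to 10601 genes for SE KO PlaB against PlaB, 11682 to 11981 for PlaB against DMSO, 5251 to 5908 for SE KO PlaB against DMSO, 3738 to 4544 against Dux KD PlaB, 8882 to 9297 and 9795 to 10242 for the interactions with Dux OE and RA, 3946 to 4139 for PlaB-raised genes that were lower and 680 to 730 for Dux-induced genes that were lower. Obox3, under 1 CPM in each PlaB and SE KO PlaB library, changed from -0.50 to 0.84 without PlaB replicate 1 (range -1.21 to 0.84 over the libraries left out) and was called in neither. Same-numbered libraries did not deviate together (r = -0.0473 for SE KO PlaB and PlaB), and a replicate block gave 10847 genes, with the same call for every named gene. The median over all genes moved from -0.07 to -0.19 for SE KO PlaB against PlaB with RLE factors, and from 0.22 to 0.48 for PlaB against DMSO with library size only, so changes of that size in list medians depend on the scaling. The sign of the list median also changed under an alternative for Trim43 and Trim75, trophectoderm, germline, Nodal, spliceosome core and mitotic genes, and the Tdpoz median was 0 without PlaB replicate 2. Named genes that lost their call under at least 1 alternative were Spopfm1, Tcstv3, Usp17ld, Hoxc4, Bag3, Sf3b1, Gm9131 and Celf3, and Cdkn1a, Tdpoz8, Gas5 and Lyz1 gained one. At these depths genes near 3 counts per library give no usable fold.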
